A study of Mus musculus with 4 samples.

Results

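The galectins of this study were the 5 genes Lgals1, Lgals3, Lgals3bp, Lgals8 and Lgals9, taken by symbol, with no measured value in the rule, and all 5 were present among the 14432 genes of the count table. They were measured in bone marrow-derived macrophages, primary cells grown out of mouse marrow with M-CSF (50 ng/mL), the growth factor of that lineage, by droplet single-cell RNA sequencing. There were 4 libraries, 1 per group. Their labels give cells of Trpv4-null mice after 100 ng/mL of lipopolysaccharide (LPS) for 24 h, cells of wild-type C57BL/6J mice after the same LPS, untreated Trpv4-null cells and untreated wild-type cells. The mice were 8 to 12 weeks old and all cultures had M-CSF. The design text speaks of 3 mice per genotype and 12 samples, but the cell annotation used here names 1 library per group and no mouse. The spread between mice is therefore unknown, no test between groups was possible, and the intervals below cover counting error only.

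Galectins are lectins that bind beta-galactoside sugars through a conserved carbohydrate recognition domain, inside cells and, after unconventional secretion, on cell surfaces. Lgals1 encodes galectin-1, a small protein with a single such domain that forms dimers, and Lgals3 encodes galectin-3, the chimera-type member with a long N-terminal tail, known as the macrophage antigen Mac-2. Lgals8 and Lgals9 encode the tandem-repeat galectins, which carry a pair of different domains on 1 chain, and galectin-3, galectin-8 and galectin-9 gather on damaged vacuoles whose inner sugars become exposed. Lgals3bp encodes a secreted, heavily glycosylated scavenger receptor cysteine-rich protein that binds galectin-3 and is itself no galectin. Lgals3bp and Lgals9 are known interferon-inducible genes, and LPS makes macrophages release type I interferon.

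The promoters are shown because Lgals9 and Lgals3bp, and none of the other members, were far higher after LPS. RefSeq (GRCm38.p6) gave a promoter window, 250 bases before to 50 after the start, for 4 of the 5 members. The windows of Lgals3 and Lgals8 lie inside the spans that GENCODE M21 gives for these genes. Both thus have an earlier GENCODE start, whose promoter was not examined. The GENCODE starts of Lgals3bp (118402092) and Lgals9 (78984946) are also earlier than those used here, and fall within the 250 bases before them. The 250 bases before the start are printed 5′ to 3′ on the gene's strand for Lgals9 (chr11:78984925-78985174, minus strand), Lgals3bp (chr11:118401960-118402209, minus strand) and, as a member that was lower after LPS, Lgals3 (chr14:47373610-47373859, plus strand). Capitals mark the letters GAAANNGAAA, the core of the interferon-stimulated response element, and AANNGAAA, its IRF-binding part, which overlaps it, on either strand.
Lgals9: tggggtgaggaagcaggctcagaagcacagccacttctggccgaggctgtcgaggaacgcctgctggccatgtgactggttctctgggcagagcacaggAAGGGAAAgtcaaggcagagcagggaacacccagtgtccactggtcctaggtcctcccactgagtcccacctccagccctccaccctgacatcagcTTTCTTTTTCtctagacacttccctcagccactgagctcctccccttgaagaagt
Lgals3bp: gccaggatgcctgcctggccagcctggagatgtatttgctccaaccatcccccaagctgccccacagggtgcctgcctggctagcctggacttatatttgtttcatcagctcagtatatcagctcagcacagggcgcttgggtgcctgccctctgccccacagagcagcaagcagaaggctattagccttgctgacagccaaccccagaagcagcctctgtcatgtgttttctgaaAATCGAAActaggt
Lgals3: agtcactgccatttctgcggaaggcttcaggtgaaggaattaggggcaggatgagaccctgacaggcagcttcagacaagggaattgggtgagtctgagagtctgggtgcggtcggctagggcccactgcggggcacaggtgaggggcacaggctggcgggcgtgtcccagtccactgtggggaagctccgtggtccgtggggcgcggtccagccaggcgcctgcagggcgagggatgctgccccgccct
The longer motif was found in the Lgals9 window, at bases -55 to -46, and again after the start, at bases 16 to 25 (TTTCTGTTTC on the gene's strand). Of 10688 promoter windows of genes in the count table, 3.34% held it. AANNGAAA was present in Lgals9 and, at bases -14 to -7, in Lgals3bp, and in 18.8% of all windows. The Lgals3bp match lies inside the GENCODE span of that gene and not before its GENCODE start. The palindromic letters TTCNNNGAA, which STAT factors bind, were in none of the 4 windows and in 7.01% of all, and GGGNNNNNCC, a loose NF-kB motif, was in Lgals3, Lgals8 and Lgals9 and in 66.0% of all. A match is a description of the letters and not evidence of a bound site.

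Levels are UMIs (unique molecular identifiers, 1 per captured mRNA molecule) summed per library and scaled to CPM, counts per 1000000 UMIs. The libraries held 5485 to 8288 cells and 43731003 to 144090985 UMIs, and the median cell had 16041 (labelled Trpv4-null) and 16673.5 UMIs (wild type) after LPS, against 7893 and 5660.5 untreated. The median share of mitochondrial UMIs was 3.19% and 3.05% after LPS and 6.13% and 6.06% untreated, in the same order of genotypes. Trpv4, the targeted gene, had 9.62 CPM in the library labelled Trpv4-null and 2.07 CPM in wild type after LPS, and 8.60 and 5.83 CPM untreated. It was not lower under the null label. Which part of the gene was deleted is not stated in the labels, and reads from outside it would check nothing, so the genotype is written as a label. All 12 macrophage markers examined reached 20 CPM in each library. The 6 neutrophil markers in the table summed to 25.9 (labelled Trpv4-null) and 48.3 CPM (wild type) after LPS and to 292.7 and 176.7 CPM untreated, with Ngp at 0 in the LPS library labelled Trpv4-null. The 3 B cell markers in the table summed to 2.70 and 3.83 CPM after LPS and to 142.3 and 140.7 CPM untreated, nearly all of it Ighm, with Ms4a1 at 0 in the untreated library labelled Trpv4-null. Whether neutrophils or B cells were present, and any part of theirs in the galectin values, was not tested. No single cell held more than 0.283% of a member's UMIs in any library. No T or NK cell, dendritic cell, stromal or mast cell marker in the table reached 20 CPM. The table held 1 of 6 T or NK, 7 of 7 dendritic, 3 of 8 stromal and 2 of 5 mast or basophil markers. It held 0 of 6 erythroid markers, so those cells were not assessed. Cells sharing a barcode with a cell of another library numbered 148 of 27366.

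By CPM, Lgals9 and Lgals3bp were 4 to 5 times as abundant after LPS under both genotype labels. Lgals9 stood at 411.1 CPM after LPS against 80.7 CPM untreated in wild type, a ratio of 5.09 (95% counting interval 4.92 to 5.27), and at 408.3 against 93.8 CPM in the libraries labelled Trpv4-null (4.35, 4.22 to 4.49). Lgals3bp stood at 677.8 CPM after LPS against 165.1 CPM untreated in wild type (4.11, 4.01 to 4.21), and at 750.5 against 187.8 CPM under the null label (4.0, 3.91 to 4.09). Both LPS libraries thus lay well above both untreated libraries for each gene, with no overlap of the intervals. On the log2 scale, with 1 CPM added, the ratios were 2.33 (wild type) and 2.11 (null label) for Lgals9 and 2.03 and 1.99 for Lgals3bp. Scaled instead by size factors from the median of ratios, they were larger, at 2.86 and 2.72 for Lgals9 and 2.56 and 2.60 for Lgals3bp. Genes entered a comparison with 20 CPM and 30 UMIs or more in the higher library, as all 5 members did each time. In wild type 162 of 6332 such genes had a higher ratio than Lgals9, and 190 a higher ratio than Lgals3bp. Of the 5 members, 2 were at least 2-fold higher after LPS in wild type, against 6.9% of all genes compared, and the same count held under the null label, against 7.3%. Here 2-fold is a rule of size and not a test.

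**Figure D1:**
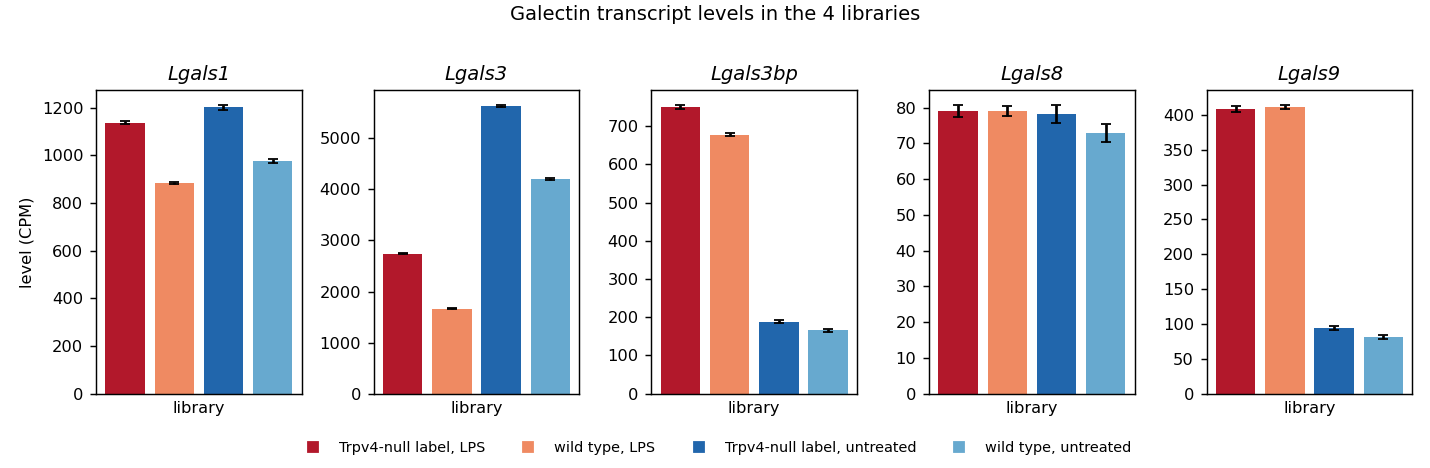
Levels of the 5 genes in CPM (vertical axis from 0, own scale per gene) in the 4 libraries, with exact Poisson 95% intervals for counting error. Lgals3bp and Lgals9 are high in both LPS libraries, Lgals3 is high in both untreated libraries and higher under the Trpv4-null label in each condition, and Lgals8 is nearly level.

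Lgals3 went the other way. It stood at 1665 CPM after LPS against 4202 CPM untreated in wild type (ratio 0.396, 0.394 to 0.399), and at 2740.2 against 5636 CPM in the libraries labelled Trpv4-null (0.486, 0.484 to 0.489). Each LPS library was below each untreated library. The log2 ratios were -1.33 and -1.04, at 9.29% and 19.9% of the way up the ranking of all genes, whose median was -0.39 in wild type and -0.42 under the null label. Lgals3 was the 1 member of 5 at least 2-fold lower, against 17.7% of genes in wild type and 21.3% under the null label. The cells differed in total RNA captured: the mean cell had 28.9 Lgals3 UMIs after LPS and 26.1 untreated in wild type, and 45.5 and 48.3 under the null label. The CPM ratio thus compares shares of the captured transcripts. Size factors from the median of ratios put the log2 ratio at -0.80 (wild type) and -0.43 (null label), below 0 but within 2-fold. Those factors moved the median gene to 0.19 and 0.25, and the share of higher genes among those past 2-fold was 68.8% and 69.5% with them, against 28.0% and 25.6% by total. Relative to the median gene under total scaling, Lgals3 lay at -0.95 and -0.62.

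Lgals1 and Lgals8 were near level by total scaling. Lgals1 stood at 883.8 CPM after LPS against 976.1 CPM untreated in wild type (0.905, 0.896 to 0.915), and at 1137 against 1202 CPM under the null label (0.946, 0.937 to 0.956). Its direction turned with the scaling, from log2 ratios of -0.14 (wild type) and -0.08 (null label) by total to 0.39 and 0.53 with median-of-ratios size factors, and it lay 0.24 and 0.34 above the median gene. Lgals8 stood at 79.2 CPM after LPS against 72.8 CPM untreated in wild type (1.09, 1.05 to 1.13) and at 79.0 against 78.3 CPM under the null label (1.01, 0.971 to 1.05), 0.51 and 0.43 above the median gene. Its log2 ratio under the null label, 0.01, ran from -0.09 to 0.62 over the alternative settings, so it had no stable direction there. In wild type the log2 ratio of Lgals8 was above 0 in all 10 settings, from 0.06 to 0.64. The Lgals8 levels of both LPS libraries and of the untreated library labelled Trpv4-null could not be told apart by counting error. On the opposite strand Lgals8 overlaps Heatr1, which had 15.3 to 23.6 CPM, and whether counting used the strand is not stated.

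**Figure D2:**
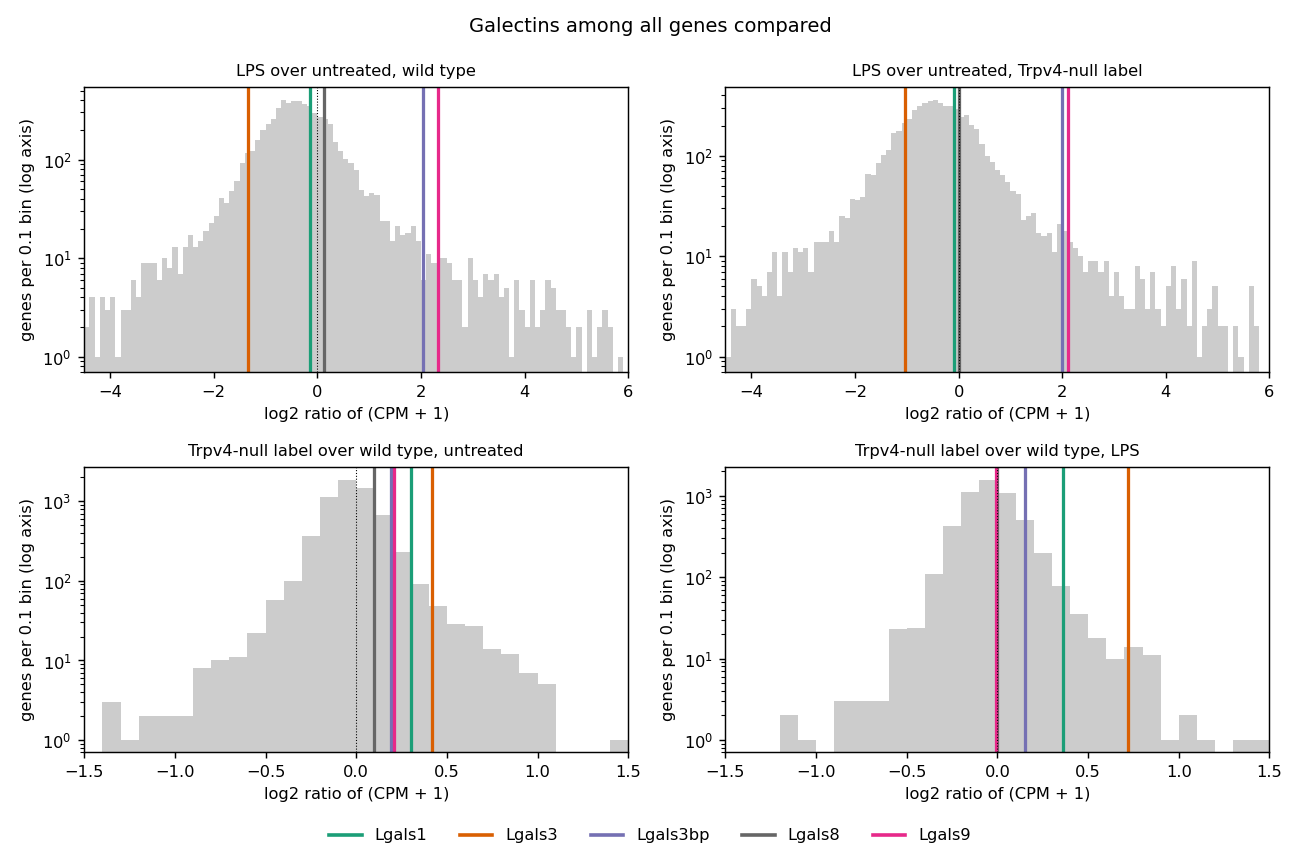
Log2 ratio of CPM plus 1 (horizontal axis) for all genes compared, as the number of genes per bin of 0.1 (log axis), with the 5 members as lines. After LPS (upper panels) Lgals3bp and Lgals9 lie in the upper tail near 2 and Lgals3 on the lower side, and between the genotype labels (lower panels) Lgals3 and Lgals1 lie on the upper side; the outer tails are beyond the axis.

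Between the genotype labels, Lgals3 and Lgals1 were higher under the null label. After LPS it had 2740.2 CPM in the library labelled Trpv4-null and 1665 CPM in wild type, a ratio of 1.65 (1.64 to 1.65) and a log2 ratio of 0.72, with 29 of 5236 genes compared further up. Untreated it had 5636 CPM under the null label and 4202 CPM in wild type, a ratio of 1.34 (1.33 to 1.35) and a log2 ratio of 0.42, with 136 of 6156 genes further up. Lgals1 had 1137 CPM under the null label and 883.8 CPM in wild type after LPS (1.29, 1.28 to 1.30), and 1202 CPM (1192 to 1212) under the null label and 976.1 CPM (966.9 to 985.5) in wild type untreated, a ratio of 1.23. Both genes were thus higher under the null label with and without LPS, by less than 2-fold. No member was 2-fold apart between the labels in either direction, against 0.146% of genes higher and 0.146% lower untreated, and 0.134% higher and 0.0573% lower after LPS. By a smaller rule of size, at least 25% higher, 1 of 5 members (Lgals3) passed untreated, against 3.41% of genes, and 2 of 5 (Lgals1 and Lgals3) after LPS, against 3.04%. None was 20% lower, the same step downwards, against 3.01% untreated and 2.56% after LPS. In cells with at most 5% mitochondrial UMIs, 22.8% of the untreated cells labelled Trpv4-null and 24.7% of the untreated wild-type cells, the untreated log2 ratio was 0.25 for Lgals3, short of 25% higher, 0.26 for Lgals1 and 0.30 for Lgals9. With 1 library per label, genotype, mouse, culture and library cannot be told apart.

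The other members were closer between the labels over all cells. Lgals3bp had 750.5 CPM under the null label and 677.8 CPM in wild type after LPS (1.11, 1.10 to 1.12) and 187.8 and 165.1 CPM untreated (1.14, 1.10 to 1.17). Lgals9 had 408.3 and 411.1 CPM after LPS (0.993, 0.981 to 1.01) and 93.8 and 80.7 CPM untreated (1.16, 1.11 to 1.22). Lgals8 had 79.0 and 79.2 CPM after LPS (0.998, 0.971 to 1.03) and 78.3 and 72.8 CPM untreated (1.08, 1.02 to 1.13). After LPS the intervals of Lgals8 and Lgals9 held 1, and the sides of 1 they fell on turned with median-of-ratios scaling, which put both log2 ratios at 0.07.

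The size of the LPS response can be set side by side for the labels as a ratio of ratios. For Lgals3 this was 1.23 (counting interval 1.22 to 1.24), the LPS ratio being 0.486 under the null label and 0.396 in wild type, and 95.1% of 6471 genes had a lower difference. For Lgals9 it was 0.855 (0.816 to 0.895), with 4.35 under the null label and 5.09 in wild type, and 12.9% of genes were lower. Lgals1 had 1.05 (1.03 to 1.06), Lgals8 0.929 (0.879 to 0.981) and Lgals3bp 0.973 (0.942 to 1.01), whose interval held 1. Each of these rests on 1 library per condition, so it was not tested against replicates.

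**Figure D3:**
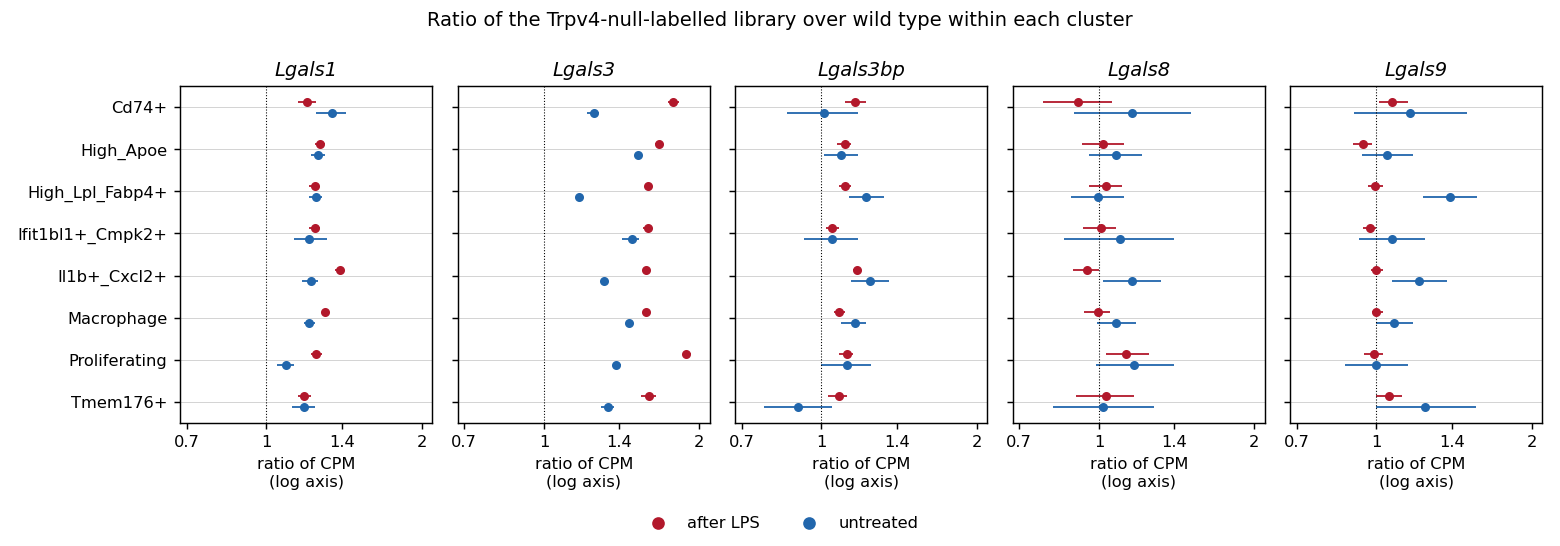
Ratio of CPM in the library labelled Trpv4-null over wild type (log axis) within 8 clusters, after LPS (red) and untreated (blue), with exact conditional 95% counting intervals. For Lgals1 and Lgals3 all 16 intervals of each gene lie above 1, and for Lgals8 and Lgals9 most intervals after LPS hold 1.

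The authors sorted the cells into 9 named clusters, and the 8 with at least 100 cells in each library were used for ratios and for the order of levels. Clusters come from the expression of these same cells, so levels by cluster are descriptions. Within each of the 8 clusters Lgals3 was higher under the null label, by 1.58 to 1.89 times after LPS (least in Il1b+_Cxcl2+, most in Proliferating) and by 1.17 to 1.52 times untreated (least in High_Lpl_Fabp4+, most in High_Apoe). Lgals1 was higher in all 8 as well, by 1.18 to 1.39 times after LPS and by 1.09 to 1.34 times untreated. For Lgals9 after LPS the ratios spanned 0.941 to 1.07, with 1 interval above 1 and 1 below. Untreated, the Lgals9 ratios spanned 0.998 to 1.39, with 2 intervals above 1 and 0 below. Lgals3bp ratios spanned 1.05 to 1.17 after LPS, with all 8 intervals above 1. They spanned 0.902 to 1.24 untreated, with 4 intervals above 1 and 0 below.

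Lgals3 differed between clusters in each library. It was highest in High_Lpl_Fabp4+, named for genes of lipid handling, of the 8 clusters in all 4 libraries, with 4755 (null label) and 2984 CPM (wild type) after LPS and 7905 and 6729 CPM untreated. It was lowest in Tmem176+ after LPS, with 1183 (null label) and 741.7 CPM (wild type), where untreated it had 4306 and 3231 CPM. The highest cluster was 4.02 times the lowest under each label after LPS, and 1.84 (null label) and 2.08 times (wild type) untreated. LPS ratios were below 1 in each of the 8 clusters, from 0.230 in Tmem176+ to 0.689 in Ifit1bl1+_Cmpk2+ in wild type, and from 0.275 to 0.740 in the same clusters under the null label. With median-of-ratios scaling the highest of these, in Ifit1bl1+_Cmpk2+, was 0.997 in wild type and 1.13 under the null label, so the direction turned there under the null label, while the other 7 clusters stayed below 1. The gap between clusters was thus wider after LPS than untreated under both labels.

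Lgals9 and Lgals3bp had their highest level in Ifit1bl1+_Cmpk2+, named for interferon-induced genes, among the 8 clusters of every library. The highest cluster had 3.58 (null label) and 4.15 times (wild type) the Lgals9 level of the lowest untreated, and 1.46 and 1.48 times after LPS. Untreated, Lgals9 had 268.0 CPM there under the null label, against 87.3 CPM in the cells of all other clusters, and 250.4 against 75.8 CPM in wild type, ratios of 3.07 and 3.30. After LPS it had 507.6 against 395.8 CPM under the null label and 522.4 against 398.1 CPM in wild type, ratios of 1.28 and 1.31. For Lgals3bp these ratios were 2.11 (null label) and 2.28 (wild type) untreated and 1.13 and 1.20 after LPS. The cluster therefore stood out less after LPS, when the other cells had more of both transcripts. The 21 interferon-stimulated genes of a fixed list had a median ratio of 13.8 (null label) and 20.5 (wild type) for this cluster over the other cells untreated, and 1.58 and 1.59 after LPS. That list holds Cmpk2, for which the cluster is named, so these medians are a description and no independent check. LPS ratios of Lgals9 were correspondingly lowest in this cluster, at 2.09 in wild type and 1.89 under the null label, and reached 6.72 in High_Lpl_Fabp4+ of wild type and 5.55 in Cd74+ under the null label.

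Lgals8, too, was highest of the 8 clusters in Ifit1bl1+_Cmpk2+ in every library (100.5 CPM under the null label and 100.0 CPM in wild type after LPS, 98.7 and 90.2 CPM untreated), and the highest cluster was 1.49 to 1.61 times the lowest. Untreated, that top place was not resolved by counting error. The interval was 84.4 to 114.9 CPM against 76.9 to 90.5 in High_Apoe under the null label. In wild type it was 74.2 to 108.5 against 71.0 to 84.4. Lgals1 was lowest in the cluster named Macrophage in every library, at 973.5 (null label) and 749.1 CPM (wild type) after LPS and 1029 and 847.6 CPM untreated. Its highest cluster was Tmem176+ after LPS, at 1551 and 1312 CPM, and Proliferating untreated, at 1529.6 and 1401 CPM. In Proliferating its LPS ratio was 0.782 (null label) and 0.683 (wild type), and in Tmem176+ it was 1.11 under both labels. With median-of-ratios scaling the ratio was 1.19 and 0.989 in Proliferating, and 1.69 and 1.60 in Tmem176+. The direction in Proliferating thus turned under the null label. For Lgals1 and Lgals3, Tmem176+ therefore lay at opposite ends of the order after LPS.

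**Figure D4:**
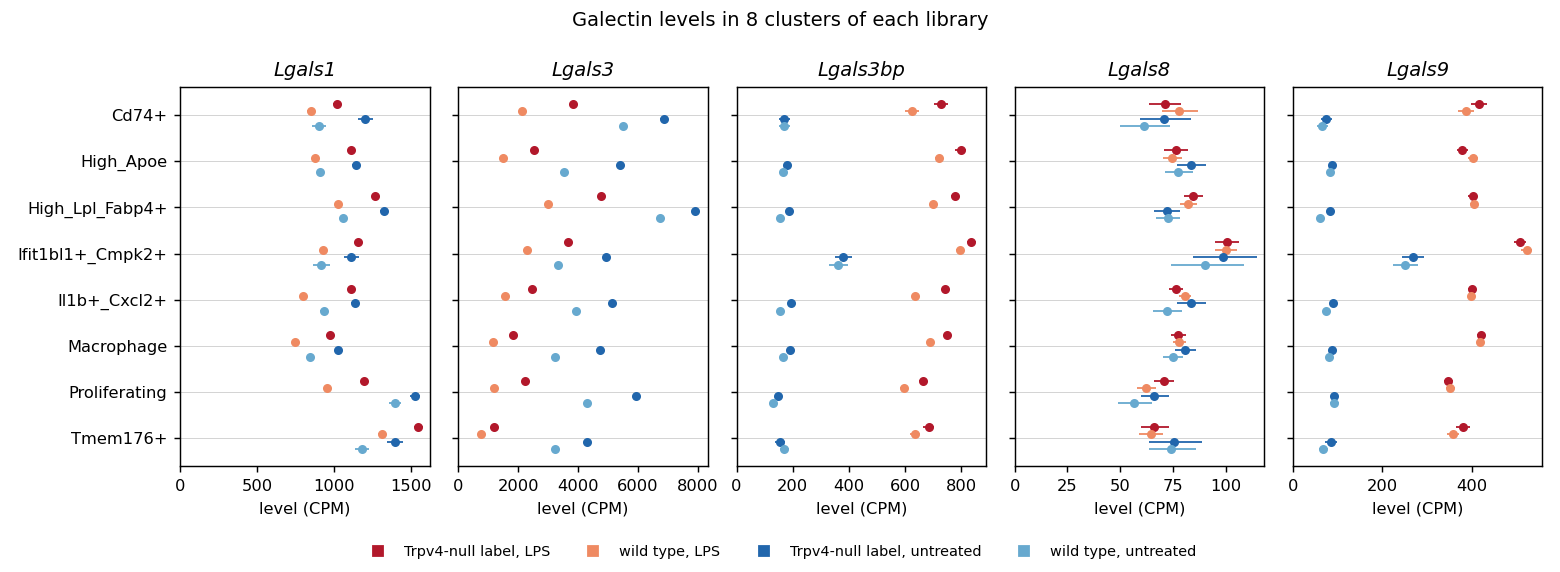
Level in CPM (horizontal axis from 0) of each gene in 8 clusters, for the 4 libraries, with exact Poisson 95% counting intervals. Lgals3 is highest in High_Lpl_Fabp4+ in every library, and untreated Lgals3bp and Lgals9 stand out in Ifit1bl1+_Cmpk2+.

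To compare single cells at equal depth, each cell was thinned at random to 3000 UMIs, and 93 (null label) and 122 (wild type) shallower cells were left out after LPS and 209 and 666 untreated. The median cell then had 6 Lgals3 UMIs under the null label and 3 in wild type after LPS, and 14 and 10 untreated. At the 5th percentile of cells the number was 0 after LPS under both labels, against 5 (null label) and 3 (wild type) untreated. The variance of Lgals3 was 4.97 to 6.93 times its mean, where counting alone gives 1, and clusters held 12.6% to 16.8% of it. The corresponding ratio was 1.71 to 1.77 for Lgals1 and 1.02 to 1.15 for Lgals3bp, Lgals8 and Lgals9. Those 3 transcripts had lower means, such as 0.244 to 1.24 UMIs for Lgals9 against 4.83 to 15.8 for Lgals3. Because this ratio nears 1 as the mean falls, it does not rank the genes by relative variation between cells.

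The share of thinned cells with a Lgals9 UMI was 68.7% (null label) and 69.6% (wild type) after LPS, against 23.4% and 20.7% untreated. Without thinning it was 97.9% under each label after LPS and 48.5% and 35.2% untreated. For Lgals3bp the thinned shares were 88.6% and 85.4% after LPS and 40.4% and 37.5% untreated. For Lgals8 they lay between 19.5% and 21.4% in the 4 libraries, although unthinned they were 67.8% and 69.3% after LPS and 45.7% and 34.7% untreated. The unthinned gap of Lgals8 was therefore largely gone at equal depth. No cluster was of a cell type known to lack these transcripts, so free RNA in the droplets was not measured. Across thinned cells, Lgals1 and Lgals3 had Spearman coefficients of 0.148 (null label) and 0.129 (wild type) after LPS and 0.220 and 0.263 untreated, and no other pair passed 0.05 in size. Cells of 1 library share its depth and preparation, and such weak values in sparse counts are no finding.

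**Figure D5:**
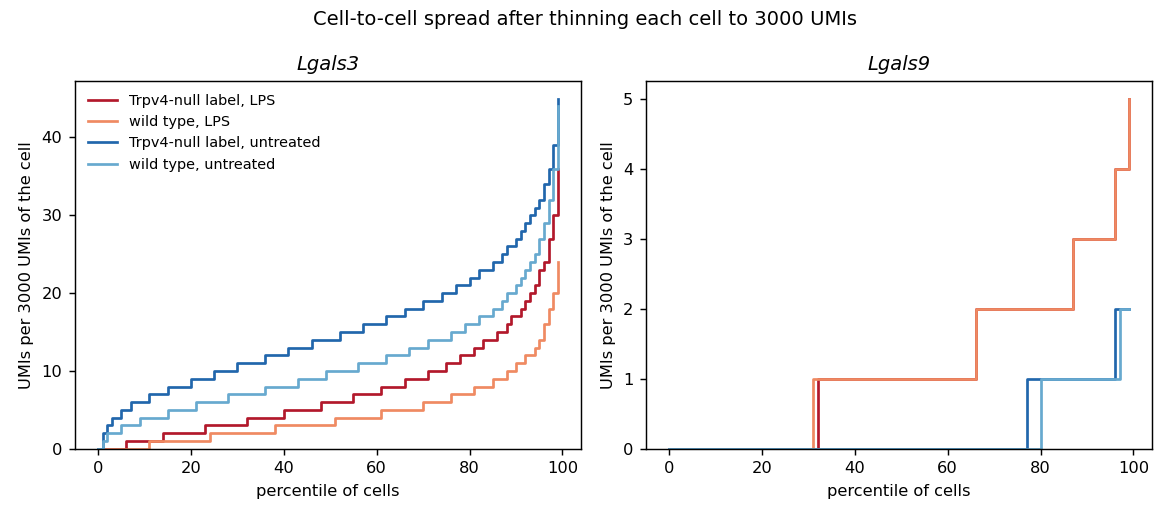
UMIs per cell (vertical axis) after thinning to 3000 UMIs, by percentile of cells up to 99, for Lgals3 and Lgals9. Lgals3 lies lowest in wild type after LPS and highest in untreated cells labelled Trpv4-null, and the LPS libraries lie above the untreated ones for Lgals9, with the curves of both labels nearly on top of each other.

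Likeness was measured as Pearson's r of log2 CPM plus 1 over 32 sums of cells, 8 clusters in each of 4 libraries, for 5396 genes with a mean of at least 20 CPM. These points share libraries and clusters, so r is given as a description. The genes most like Lgals9 were Ifi206 (0.995), Ifi209 (0.991) and Isg15 (0.991), and those most like Lgals3bp were Fcgr1 (0.994), Slfn1 (0.993) and Bst2 (0.992). Lgals9 and Lgals3bp had an r of 0.983 with each other and of -0.687 and -0.680 with Lgals3. Lgals3 was most like Il7r (0.940), Fam129b (0.920) and Ahnak2 (0.919). Lgals8 was most like Stat3 (0.801), Irf1 (0.757) and Aftph (0.757), and Lgals1 most like Clic1 (0.709), Emp3 (0.694) and Prdx4 (0.663), so the last 2 members had no close match.

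Interferon-stimulated genes, the class that Lgals9 and Lgals3bp are known to belong to, were far higher after LPS. Of 21 compared, 20 were at least 2-fold higher under each genotype label, against 6.9% of all genes in wild type and 7.3% under the null label. Their median log2 ratio was 3.83 in wild type and 3.93 under the null label. With median-of-ratios scaling all 21 were at least 2-fold higher under each label, against 14.1% of all genes in wild type and 16.6% under the null label. Isg15, a ubiquitin-like modifier, had 1854 CPM after LPS and 32.2 CPM untreated in wild type, and 2636 and 49.2 CPM under the null label. The transcription factor gene Irf7 had 1131 and 28.3 CPM in wild type. Both galectin-related genes thus lay below the median of this list. Between the labels, a gene near 20 CPM untreated could enter through the null-label library alone, so the untreated count is a description. Untreated, 10 of 17 interferon-stimulated genes were at least 25% higher under the null label, against 3.41% of all genes. After LPS 5 of 21 were (Isg15, Rsad2, Oasl1, Cmpk2 and Ifit2), against 3.04%, and Oasl2 was lower, with median log2 ratios of 0.38 untreated and 0.22 after LPS, against -0.02 and -0.04 for all genes. Rsad2, an antiviral enzyme, had 1386 CPM under the null label and 865.6 CPM in wild type after LPS. Irf7 had 53.9 CPM under the null label and 28.3 CPM in wild type untreated. These values are over all cells. Untreated, the cluster Ifit1bl1+_Cmpk2+ held 179 of 5485 cells under the null label and 177 of 7028 in wild type. The part of its size in these ratios was not tested.

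Genes that build or trim the sugars that galectins read were past 2-fold about as often as all genes. Of 15 compared, 1 was at least 2-fold higher and 3 lower after LPS in wild type (median log2 -0.40, against -0.39 for all genes), and 1 higher and 4 lower under the null label (-0.45, against -0.42). Of all genes, 6.9% were higher and 17.7% lower in wild type, and 7.3% and 21.3% under the null label. With median-of-ratios scaling 2 were higher and 2 lower under each label, and the median was 0.12 in wild type and 0.14 under the null label, below that of all genes. The shares of all genes were then 14.1% higher and 6.38% lower in wild type, and 16.6% and 7.3% under the null label. St6gal1, whose alpha-2,6-sialic acid caps block binding of many galectins, had 4.29 CPM after LPS and 108.9 CPM untreated in wild type (ratio 0.0394), and 2.90 and 88.7 CPM under the null label (0.0327). The Golgi mannosidase gene Man2a2 had 7.13 and 74.6 CPM in wild type and 4.51 and 81.5 CPM under the null label. In the other direction St3gal1, which adds alpha-2,3-sialic acid, had 75.4 and 28.7 CPM under the null label (2.63). The further genes past 2-fold were B3gnt8, lower under both labels, and Man2a1, lower under the null label, by total scaling. St6gal1 and Man2a2 thus lay far below the list's median. Between the labels no member of this list was 2-fold apart, and the medians were -0.07 untreated and -0.06 after LPS.

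Among 16 cell surface partners of galectins compared, none was at least 2-fold higher and 3 were lower after LPS in wild type, against 6.9% and 17.7% of all genes, and 1 was higher and 4 lower under the null label, against 7.3% and 21.3%. The medians were -0.25 in wild type and -0.04 under the null label, against -0.39 and -0.42 for all genes. With median-of-ratios scaling 3 were higher and 1 lower in wild type (0.28), and 4 higher and none lower under the null label (0.57), against medians of 0.19 and 0.25 for all genes, which turned with the scaling as this list did. By that scaling 14.1% of all genes were higher and 6.38% lower in wild type, and 16.6% and 7.3% under the null label. The lipid-sensing receptor gene Trem2 had 335.6 CPM after LPS and 1235 CPM untreated in wild type, and 380.4 and 1027 CPM under the null label. Cd44, the hyaluronan receptor, had 173.4 and 428.4 CPM in wild type and 160.2 and 415.9 CPM under the null label. Itga5, an integrin subunit, had 67.4 and 27.8 CPM under the null label. Mertk was also past 2-fold lower under both labels, and Tfrc under the null label, by total scaling. Between the labels none was 2-fold apart (medians -0.07 untreated, 0.03 after LPS), and Cd36, a fatty acid and scavenger receptor, had 267.7 CPM under the null label and 204.8 CPM in wild type after LPS but 208.0 and 281.9 CPM untreated.

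Of 23 genes of the autophagy that clears damaged vacuoles, none was at least 2-fold higher and 6 were lower after LPS in wild type (median -0.32), against 6.9% and 17.7% of all genes, and 1 was higher and 5 lower under the null label (-0.36), against 7.3% and 21.3%. With median-of-ratios scaling 1 was higher and 4 lower in wild type (0.20) and 2 higher and 3 lower under the null label (0.25). Of all genes, that scaling put 14.1% higher and 6.38% lower in wild type, and 16.6% and 7.3% under the null label. Gabarapl1, an ATG8-family protein, had 44.0 CPM after LPS and 191.8 CPM untreated in wild type, and 36.7 and 190.6 CPM under the null label. Ulk1, the kinase that starts autophagy, had 16.5 and 59.9 CPM in wild type. Chmp4b, an ESCRT-III subunit, was the 1 higher under the null label (389.4 and 179.4 CPM). Gabarapl1 and Ulk1 were lower while the median of the list stayed within 0.1 of that of all genes under total scaling. None was 25% higher or 20% lower between the labels. Of 7 further galectin-family genes, 4 were in the table (Lgals2, Lgals4, Lgals7 and Lgalsl), each with at most 1.10 CPM in any library, so none was compared.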

How the data were processed

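The authors deposited raw counts, whole numbers of UMIs per gene and cell, and, per the file headers, a cell annotation with the UMI count, the fraction of mitochondrial UMIs, the library and the cluster name of each cell. The tools were R 4.2, Seurat 4 and Cell Ranger 3.1.0, on build mm10, per the submitters' processing notes, which give no role or order. Filters on cells, removal of doublets and use of strand are not given in those notes or the labels. In the values, cells had 1003 to 39987 UMIs and at most 9.998% mitochondrial UMIs, and all 27366 cells' counts summed to the annotated totals.

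UMIs were added up per library and divided by its total to give CPM. Levels carry exact Poisson, ratios exact conditional, and shares of cells exact (Clopper-Pearson) 95% intervals, which cover counting error only (half-width 0.359% to 3.49% of a member's level). The ratio of ratios has a normal-approximation interval. The log2 ratio used CPM plus 1. The 12 alternatives were other scalings, pseudocount, floor, cell subsets, weighting and thinning depths. Median-of-ratios scaling of the lists and clusters was added after seeing the data. With 1 library per group no p-value was computed. The 5 members, the lists (named genes being up to 3 per list and comparison with the largest ratio, and the 3 genes most like each member) and the rules of size were chosen with earlier results of these data known. Further genes of small counts were named after their values were seen, and some named genes are given in counts only. Positions came from GENCODE M21 on GRCm38, where 14275 of 14432 symbols matched. On it Lgals1 lies at chr15:78926725-78930465 (plus strand), Lgals3 at chr14:47367751-47386160 (plus), Lgals3bp at chr11:118392751-118402092 (minus), Lgals8 at chr13:12439415-12464944 (minus) and Lgals9 at chr11:78962974-78984946 (minus), all protein-coding. The ratio steps were tested on simulated counts. Tools were edgeR 4.0.16 in R 4.3.3 (TMM factors only) and, in Python 3.11.15, pandas 2.3.3, scipy 1.17.1, numpy 2.4.6 and matplotlib 3.10.9.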

Additional observations from a re-analysis of the deposited data

Results flagged for a closer look

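The ratio between the genotype labels changed side between conditions for 2 members, and the difference was not tested. Lgals9 was on the wild-type side of 1 after LPS (log2 ratio of the null label over wild type -0.01) and on the null-label side untreated (0.21), a difference of -0.22. Lgals8 likewise had a difference of -0.11, from a log2 ratio of 0.00 after LPS and 0.10 untreated. With median-of-ratios scaling both log2 ratios after LPS were 0.07, above 0. In both genes the interval of the ratio after LPS held 1.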

How the results depend on the processing

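No paired analysis was possible because each group had 1 library. Under the 10 alternatives for ratios, Lgals3bp and Lgals9 stayed at least 1.87 and 1.89 above 0 (log2) after LPS under both labels, and Lgals1 and Lgals3 stayed above 0 between the labels, Lgals3 at 0.25 to 0.49 untreated and 0.70 to 0.80 after LPS. The count of members at least 2-fold lower after LPS, 1 (Lgals3) as reported, was 0 under both labels with median-of-ratios size factors and with TMM factors. Under the null label, where Lgals3 lay just past 2-fold, it was 0 as well with totals that leave out the 10 genes with most UMIs, without the proliferating cluster, without the 5% of cells with most UMIs and with the mean of each cell's CPM. The count at least 25% higher under the null label untreated, 1 as reported, was 0 in cells with at most 5% mitochondrial UMIs and 2 with the mean of each cell's CPM. The cause was not tested. The other counts of members past a fold were the same or within 1.5 times. Scaling moved the median gene after LPS from -0.39 to 0.19 in wild type and from -0.42 to 0.25 under the null label, and the share of higher among 2-fold calls from 28.0% to 68.8% and from 25.6% to 69.5%. Thinned shares of cells were lower at 1500 UMIs and higher at 5000 UMIs, as fewer or more molecules were drawn.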
